A study of Rattus norvegicus with 8 samples.

Results

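Splicing factors and spliceosome proteins were followed across the livers of diabetic rats fed a control diet or a diet with persimmon peel extract. The members are all probe sets, other than manufacturer's controls, that carry exactly 1 gene symbol beginning with Srsf, Hnrnp, Sf3a, Sf3b, Snrp, Tra2, Mbnl, Celf, Ptbp or Luc7l, or the symbol Rsrp1. A probe set is the group of short oligonucleotides on an Affymetrix array that together give 1 signal for 1 stretch of a transcript. There were 114 such sets for 64 genes, among 31042 sets in all, of which 20826 carried 1 symbol. Another 8 sets carried several symbols, 1 of them matching, and were left out of the members.

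Liver RNA came from male Goto-Kakizaki (GK) rats, an inbred strain with spontaneous type 2 diabetes and no obesity, aged 18 weeks. The control diet group (n = 4) ate AIN-93G, a purified rodent diet, for 12 weeks, and the persimmon peel diet group (n = 4) ate AIN-93G with the extract for as long. The amount of extract is not given in the sources used here, and every rat of both groups carried the GK background, so no non-diabetic liver enters the comparison. Each liver was hybridised to 1 array, and the question was how the extract changed hepatic gene expression.

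Introns are removed from pre-mRNA by the spliceosome, a machine of small nuclear RNAs and proteins. Its core holds the Sm proteins (Snrp genes), which ring the small nuclear RNAs, and the SF3A and SF3B complexes, which help the U2 particle hold the branch point. Which exons are kept is set by proteins that bind the RNA: SR proteins (Srsf genes) and the related Tra2 proteins mostly favour exon inclusion, while hnRNP and PTBP proteins often oppose it, and MBNL and CELF proteins act against each other on many developmental exons. Several of these genes regulate their own splicing, so that 1 gene gives transcripts with different exons and different 3' ends, and probe sets of 1 gene need not measure the same transcripts.

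Facts of the whole series bear on every value. The median signal of an array ranged from 33.2 to 39.2 units, and Pearson's r of array pairs from 0.967 to 0.986. For beta-actin, control sets for the middle and the 3' end of the transcript gauge how complete the labelled RNA was. The middle over 3' ratio, in log2, ran from -0.78 to -0.75 on the control diet and from -1.18 to -0.92 on the persimmon peel diet, with no overlap. A two-sided exact permutation test gave p = 0.0286, which no 4 against 4 design can undercut, and 0.0571 after adjustment over 4 ratios. The 5' over 3' ratio of beta-actin was also apart, narrowly (mean difference -0.28, exact p = 0.0286, adjusted 0.0571). For GAPDH the 5' over 3' ratio differed by -0.14 (exact p = 0.0857, adjusted 0.114) and the middle over 3' ratio by -0.01 (exact p = 0.857). The summed signal of the hepatocyte marker list (11 of 12 genes on the array, all tested) ran from 111609 to 119284 on the control diet and from 102468 to 109909 on the persimmon peel diet, also without overlap, and the only or brightest set was negative for all 11 genes, with 0 of them called (limma; the dimmer Cps1 set was lower, at -0.55). Summed signals of the other cell types overlapped between the diets: Kupffer cells (9 of 11 genes tested) 6231 to 8138 and 6979 to 11322, sinusoidal endothelial cells (6 of 8) 4622 to 4901 and 3792 to 4814, stellate cells (5 of 7) 929 to 1337 and 874 to 1133. Cholangiocyte markers (4 of 5 on the array, 1 tested) summed to 210 to 297 and 239 to 250. Lymphocyte markers (7 of 8 on the array, 1 tested) summed to 251 to 299 and 216 to 312, and erythroid markers (2 of 3) to 3175 to 8589 and 4483 to 6217. Each sum takes the brightest set of every listed gene on the array, tested or not, so dim untested sets enter it. The endothelial gene Fcgr2b was lower (-0.42, adjusted p = 0.00900), and 5 lymphocyte, 2 cholangiocyte and 1 stellate gene stayed below the lowest tested signal on every array. The part of RNA quality or of cell makeup in the results that follow was not tested, except where a value is given, and fewer cells of a type and less RNA per cell cannot be told apart in whole liver.

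Splicing factor probe sets were lower on the persimmon peel diet where a difference passed the test. The lower signals came from a minority of genes: Rsrp1, Tra2b, Mbnl1, Mbnl2, Sf3b1, Srsf6, Hnrnpa2b1, Hnrnpa3 and Hnrnph1. In Mbnl1, Mbnl2, Sf3b1, Srsf6, Hnrnpa2b1 and Hnrnpa3 the brightest set did not pass. Of 114 member sets, 95 sets for 57 genes were bright enough to be tested, and 14 sets of 9 genes were lower and 0 were higher (limma, Benjamini-Hochberg adjusted p under 0.05 over all 15521 tested sets). Over the whole array 4.53% of tested sets were lower and 0.425% were higher, so 14.7% of the members stood against 4.53%. At an unadjusted p under 0.05, 27 member sets were lower and 7 higher in the same limma fit, and over the array these were 13.4% and 6.19%. The median log2 fold change, persimmon peel minus control, was -0.08 over the 95 sets and -0.01 over all tested sets, and 56 of the 95 were negative (58.9%, against 51.4% over the array). After quantile normalization 10 member sets were lower and 1 higher, against 597 lower and 271 higher over the array (703 and 66 without it). The member count was 6 without control array 4, 7 without control array 1, 7 without persimmon peel array 1, 8 without control array 2 and 8 without persimmon peel array 3. In these fits the share of all tested sets that were lower was 1.90%, 2.60%, 2.17%, 3.50% and 3.14%, in that order. The 4 arrays of each diet lay apart in 20 member sets with the persimmon peel arrays lower and in 3 with them higher, which is 21.1% and 3.16% of the members. The share apart was 10.0% lower and 2.87% higher over the array.

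**Figure D1:**
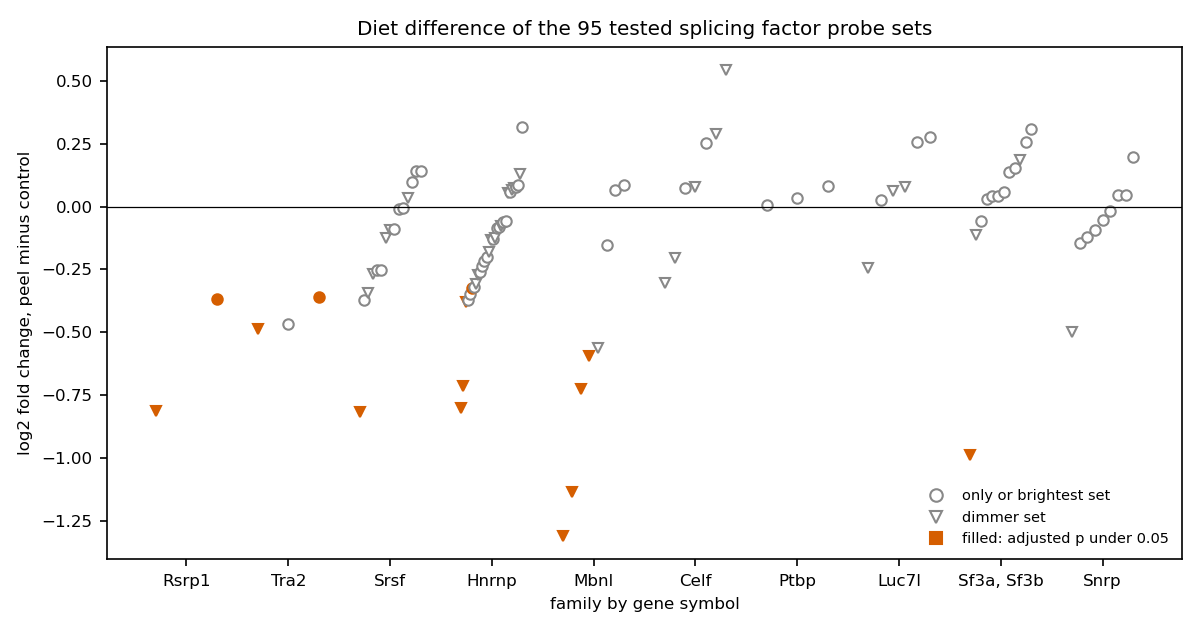
Each point is 1 of the 95 tested probe sets, placed by its gene family (x axis) and its log2 fold change, persimmon peel minus control (y axis). Circles are the only or brightest tested set of a gene, triangles are dimmer sets, and filled points passed the test; the filled points reach down to -1.31, 4 of the 14 belong to Mbnl genes, and none lies above 0.

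The calls sat mostly on the dimmer probe sets of genes that have several. Of the 57 genes, 35 had 1 tested set, and 1 of those sets was lower (Hnrnph1), or 2.86% against 1.8% of all 6879 only sets on the array (0 and 0.392% higher). Among the other 22 genes, 2 brightest sets were lower (Rsrp1 and Tra2b), or 9.09% against 2.31% of all 2295 brightest sets (0 and 0.697% higher). Their dimmer sets numbered 38, and 11 of these were lower, or 28.9% against 13.8% of all 2981 dimmer sets (0 and 0.302% higher). Only and brightest sets together were lower in 3 of 57 members, or 5.26%, against 1.93% lower and 0.469% higher over the array. Over the 38 dimmer member sets the median log2 fold change stood at -0.22, and over all dimmer sets at -0.12, whereas over the 57 only or brightest member sets it was -0.01, with 29 negative and 28 positive. Dimmer sets were therefore lower more often on the array as a whole as well, and the member counts are to be read against 13.8% there. With only the brightest set of each gene tested, 0 of 57 member sets passed in limma, where 0.85% of all 9174 sets were lower. At an unadjusted p under 0.05, 12 members were lower there, against 9.71% of all sets.

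**Figure D2:**
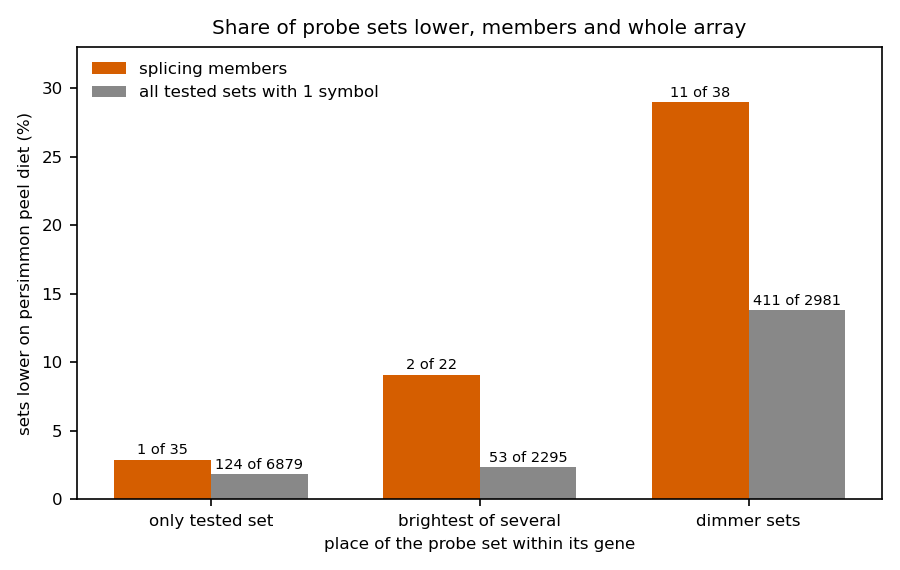
Bars give the share (%) of tested probe sets called lower on the persimmon peel diet, for splicing members and for all sets with 1 symbol, split by the place of the set within its gene. The counts stand above the bars: 1 of 35, 2 of 22 and 11 of 38 member sets, against 124 of 6879, 53 of 2295 and 411 of 2981 sets on the array.

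Both tested sets of Rsrp1 and of Tra2b were lower on the persimmon peel diet, although the brighter set of each lost its call in many other settings. Over the array, 8 genes of 2295 with several tested sets had every set lower, and the members held 2 of them. Sets are numbered here by their mean signal within a gene, set 1 being the brightest.

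Rsrp1 encodes a small arginine- and serine-rich protein. Its set 1 read 2541, 2368, 2128 and 2147 signal units on control arrays 1 to 4 and 1973, 1559, 1612 and 1995 on persimmon peel arrays 1 to 4. The groups did not overlap, since every persimmon peel array was below the lowest control array. The log2 fold change was -0.37 (SE 0.10, adjusted p = 0.0421). Set 2 read 653, 651, 497 and 495 on the control diet and 409, 335, 265 and 302 on the persimmon peel diet. All persimmon peel arrays lay below all control arrays, and control arrays 1 and 2 stood above the other two. The log2 fold change of set 2 was -0.81 (SE 0.14, adjusted p = 0.00528), so its mean signal on the log scale was 56.9% of the control level. Set 1 lost its call in 14 of 20 other settings, among them 7 of 8 fits that each left out 1 array, while set 2 kept it in 18 of 19.

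Tra2b, an SR-like protein that promotes exon inclusion and controls its own splicing, was lower in both sets. Set 1 read 1421, 1206, 1153 and 1233 on the control diet and 894, 966, 1025 and 1016 on the persimmon peel diet. The lowest control array was above the highest persimmon peel array. The log2 fold change was -0.36 (SE 0.09, adjusted p = 0.0308). Set 2 read 696, 635, 689 and 699 on the control diet and 446, 557, 459 and 484 on the persimmon peel diet. Again the groups lay apart, with persimmon peel array 2 nearest to the controls, and the log2 fold change was -0.49 (SE 0.10, adjusted p = 0.00970). Set 1 passed in 9 of 20 other settings, among them 3 of 8 fits that left out 1 array, and set 2 in 17 of 19. Its paralog Tra2a had 1 tested set, at 253, 303, 202 and 295 on the control diet and 209, 200, 170 and 177 on the persimmon peel diet. The Tra2a groups overlapped through control array 3, and its log2 fold change of -0.46 (SE 0.14, adjusted p = 0.0658) did not pass.

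Upstream sequence is shown for genes whose only or brightest set was lower, since for these the difference was not limited to a dimmer set; each of these calls was lost in more than 10 of 20 other settings. The RefSeq promoter table of GRCr8 held 60 entries for 55 of the 64 member genes, and of the 3 genes with a lower only or brightest set it held Tra2b and Hnrnph1. The 250 bases before the annotated start are given 5' to 3', with capitals marking matches on either strand to GGGCGG (the GC box), the palindromic NRF1 motif, CCAAT or TATAAA; Tra2b lies at chr11:92293192-92293441 and Hnrnph1 at chr10:35194383-35194632, both on the plus strand.
Tra2b: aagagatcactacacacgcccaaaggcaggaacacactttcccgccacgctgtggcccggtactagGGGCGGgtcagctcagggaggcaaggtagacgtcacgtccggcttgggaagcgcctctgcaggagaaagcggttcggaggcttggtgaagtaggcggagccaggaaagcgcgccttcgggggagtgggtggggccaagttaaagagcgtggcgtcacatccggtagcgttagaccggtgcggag
Hnrnph1: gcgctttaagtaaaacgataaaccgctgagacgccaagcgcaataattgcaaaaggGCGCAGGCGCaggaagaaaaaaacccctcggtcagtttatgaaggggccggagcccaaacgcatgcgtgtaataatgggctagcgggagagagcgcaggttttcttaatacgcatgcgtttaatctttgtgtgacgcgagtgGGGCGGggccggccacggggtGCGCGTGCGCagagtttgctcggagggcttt
Tra2b held 1 match to GGGCGG and none to the other motifs, and Hnrnph1 held 1 match to GGGCGG and 2 to the NRF1 motif. In the same window GGGCGG occurred in 63.3% of the 60 member promoters and in 30.5% of all 33469 promoters. The NRF1 motif occurred in 15.0% and 3.75%, CCAAT in 51.7% and 34.0%, and TATAAA in 10.0% and 12.9%. These matches describe the letters only and were not tied to the diet difference.

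The lowest log2 fold changes of the members were those of muscleblind-like genes, in sets other than the brightest. MBNL proteins bind CUG-rich RNA and set adult patterns of splicing and of polyadenylation. Of 8 tested Mbnl sets, 4 were lower and 0 higher (limma), and the 4 belonged to Mbnl1 and Mbnl2. All 4 were dimmer sets, and 13.8% of all dimmer sets on the array were lower. No only or brightest Mbnl set was called.

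Mbnl2 set 3 read 211, 208, 213 and 272 on the control diet and 99.1, 118, 82.2 and 70.6 on the persimmon peel diet. The groups were far apart, and control array 4 stood above the other controls. Its log2 fold change of -1.31 (SE 0.16, adjusted p = 0.00120) was the lowest of all members and left 40.4% of the control level. Mbnl2 set 2 read 165, 170, 182 and 225 against 118, 121, 103 and 106. No persimmon peel array reached the lowest control array, and the log2 fold change was -0.72 (SE 0.13, adjusted p = 0.00583). Set 4, near the lowest tested signal at 46.1, 52.9, 49.6 and 70.5 against 42.5, 35.0, 41.4 and 29.1, also lay apart. Its log2 fold change of -0.56 (SE 0.20, adjusted p = 0.119) did not pass. The brightest set of Mbnl2 read 926, 956, 938 and 1199 against 876, 872, 948 and 905. Its groups overlapped through persimmon peel array 3, and the log2 fold change was -0.15 (SE 0.10, adjusted p = 0.406).

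Mbnl1 set 3 read 126, 115, 135 and 177 on the control diet and 59.0, 89.6, 55.5 and 51.1 on the persimmon peel diet. The groups lay apart, with persimmon peel array 2 the nearest to the controls. The log2 fold change was -1.13 (SE 0.18, adjusted p = 0.00418), or 45.6% of the control level. Mbnl1 set 2 read 386, 380, 335 and 454 against 229, 311, 205 and 294, its log2 fold change being -0.59 (SE 0.14, adjusted p = 0.0269). It too showed no overlap, persimmon peel array 2 being again the highest of its diet. Set 3 passed in 16 of 18 other settings, and set 2 in 9 of 19 and in 3 of 8 fits that left out 1 array. The brightest set of Mbnl1 had the opposite sign, with 815, 857, 736 and 867 on the control diet and 854, 778, 979 and 869 on the persimmon peel diet. These groups overlapped widely (log2 fold change 0.09, SE 0.09, adjusted p = 0.659). Set 4 of Mbnl1 stayed at or below 2.44 units on every array and was not tested. Mbnl3, with 1 tested set between 39.9 and 61.1 units over the 8 arrays, had 0.06 as its log2 fold change (SE 0.18, adjusted p = 0.882).

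**Figure D3:**
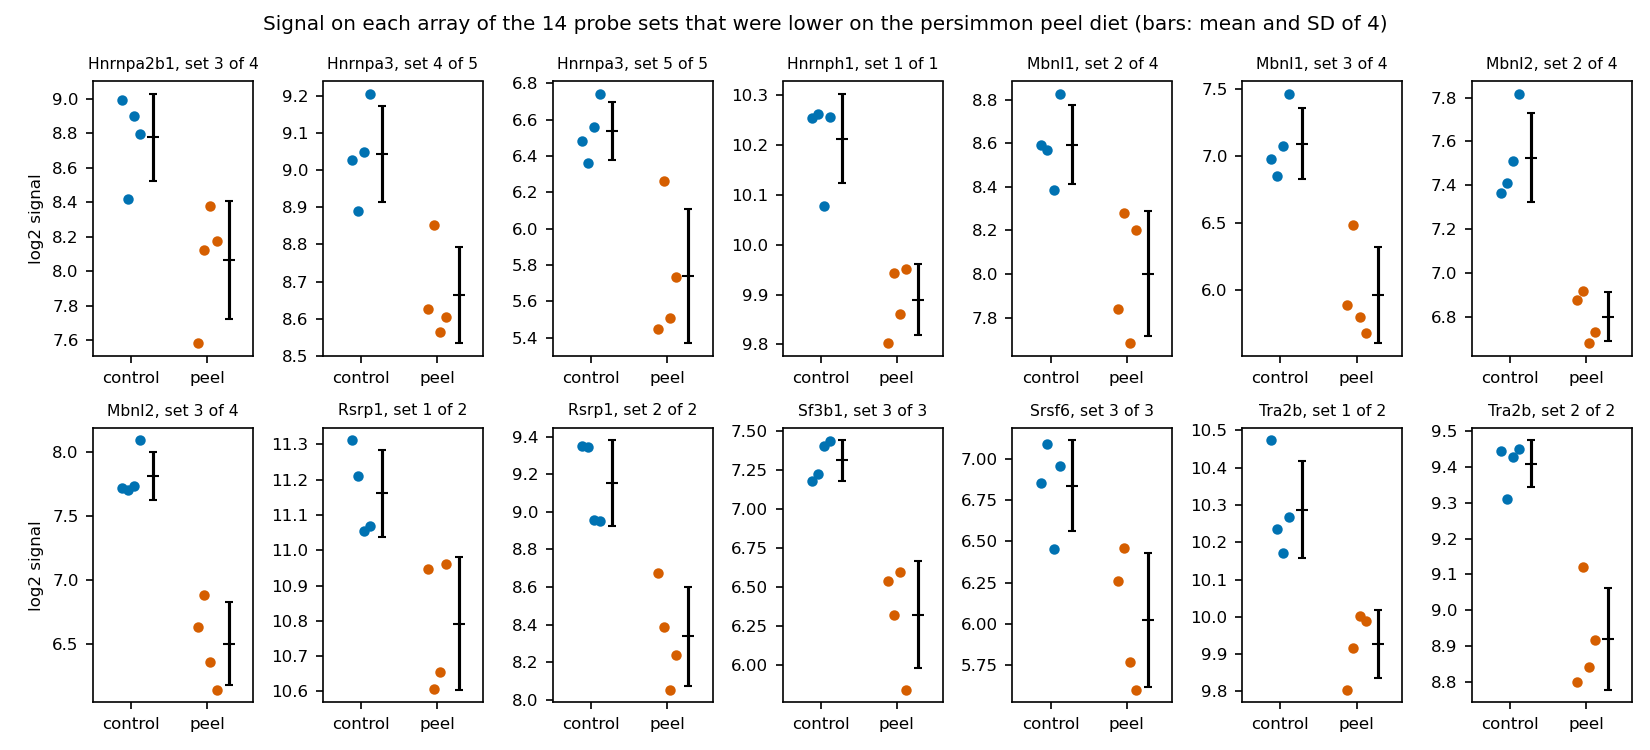
Each panel shows 1 of the 14 probe sets that were lower on the persimmon peel diet, with the log2 signal (y axis) of the 4 control and 4 persimmon peel arrays as points and the mean and SD beside them; y axes differ between panels. The diets lie apart in 13 of the 14 panels, the exception being Srsf6 set 3.

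SR proteins bind exonic enhancers through their RNA recognition motifs and recruit the splicing machinery through arginine-serine repeats. Of 15 tested Srsf sets for 9 genes, 1 was lower and 0 were higher (limma), where 4.53% of all tested sets were lower. Their median log2 fold change was -0.09, with a range of -0.81 to 0.14. The lower set was Srsf6 set 3, at 115, 136, 87.5 and 124 on the control diet and 76.7, 88.2, 54.5 and 48.5 on the persimmon peel diet. Control array 3 and persimmon peel array 2 overlapped, so this was the 1 called member whose groups did not lie apart. Its log2 fold change was -0.81 (SE 0.20, adjusted p = 0.0288), and it passed in 9 of 18 other settings and in 3 of 8 fits that left out 1 array. Set 1 of Srsf6 read 622, 484, 578 and 482 against 561, 525, 575 and 485, the log2 fold change being -0.01 (SE 0.11, adjusted p = 0.981), and set 2 had -0.12 (SE 0.10, adjusted p = 0.539) with the diets narrowly apart.

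The other SR genes did not pass. Srsf1, a founding SR protein, had -0.25 in set 1 (adjusted p = 0.168) and -0.09 in set 2 (adjusted p = 0.721). Srsf2, which also shapes transcription elongation, had -0.09 in its brightest set, at 1438, 1190, 1279 and 1227 against 1011, 1074, 1515 and 1274, where persimmon peel array 3 was the highest of all 8. Srsf11 had -0.25 (adjusted p = 0.202) and Srsf4 -0.01 (adjusted p = 0.980), and Srsf5 and Srsf9 each had 0.14 (adjusted p = 0.519 and 0.517). Srsf10, a repressor at heat shock, had 0.10 and -0.34 in its tested sets (adjusted p = 0.819 and 0.273). Srsf7-ps4, named as a pseudogene, had -0.37 (SE 0.27, adjusted p = 0.481), and its value is uncertain because a pseudogene can share sequence with its parent. Srsf3 and Srsf7 each had 1 member set, too dim to be tested. Another pair of sets assigned to Srsf3 together with a second locus had log2 fold changes of -0.02 and 0.32 (adjusted p = 0.962 and 0.248).

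HnRNP proteins coat nascent transcripts and set splice site choice, export and stability. Of 30 tested Hnrnp sets for 17 genes, 4 were lower and 0 higher (limma). The median log2 fold change was -0.13, 22 sets were negative, and in 8 the persimmon peel arrays lay below all control arrays. Over all tested sets 4.53% were lower, 51.4% were negative and 10.0% lay apart with the persimmon peel arrays lower. Apart from Hnrnph1 the lower sets were dimmer sets of their genes, and 13.8% of all dimmer sets were lower.

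Hnrnpa2b1 set 3 read 509, 342, 478 and 445 on the control diet and 192, 279, 333 and 289 on the persimmon peel diet. The diets did not overlap, but control array 2 and persimmon peel array 3 were close. The log2 fold change was -0.71 (SE 0.16, adjusted p = 0.0217). Its call held in 11 of 19 other settings and in 4 of 8 fits that left out 1 array. The other 3 sets of this gene had -0.06, -0.18 and -0.13 (adjusted p = 0.772, 0.388 and 0.613), and its brightest set read 1177, 1432, 1221 and 1420 against 1187, 1338, 1169 and 1342.

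Hnrnpa3, a close relative, had 5 tested sets, of which the dimmest were lower. Set 5 read 89.4, 82.3, 94.3 and 107 against 43.7, 76.7, 45.5 and 53.2. Persimmon peel array 2 stood near the controls and the other persimmon peel arrays well below them, and the log2 fold change was -0.80 (SE 0.18, adjusted p = 0.0217). Set 4 read 522, 475, 529 and 590 against 395, 462, 379 and 390, the log2 fold change being -0.38 (SE 0.10, adjusted p = 0.0475), the call nearest to the threshold among the members. Set 4 passed in 6 of 19 other settings and in 1 of 8 fits that left out 1 array, and set 5 in 11 of 18 and 4 of 8. Set 3 had -0.27 (adjusted p = 0.101) with the diets apart, set 2 had 0.07 (adjusted p = 0.667) and set 1 had -0.23 (adjusted p = 0.190). HnRNP A-type genes have many processed copies in rodent genomes, so signals of single Hnrnpa sets may hold more than 1 locus.

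Hnrnph1, which binds G-rich stretches, had 1 set on the array, at 1221, 1229, 1081 and 1223 on the control diet and 893, 985, 930 and 990 on the persimmon peel diet. No array crossed over, and control array 3 stood below the other controls. The log2 fold change was -0.32 (SE 0.08, adjusted p = 0.0349), or 79.9% of the control level. It passed in 7 of 20 other settings and in 2 of 8 fits that left out 1 array, and missed the threshold after quantile normalization (-0.26, adjusted p = 0.0694). Its relative Hnrnpf had -0.35 (SE 0.12, adjusted p = 0.103), at 332, 284, 366 and 373 against 263, 259, 237 and 302, where control array 2 overlapped. Hnrnpll, a splicing regulator known from lymphocytes, had -0.37 (SE 0.13, adjusted p = 0.113), the most negative only or brightest set of the family, and Hnrnpd, a decay factor of AU-rich mRNA, had -0.32 (adjusted p = 0.224) with the diets apart. Hnrnpul1 stood at the other end with 0.32 (SE 0.13, adjusted p = 0.204). Hnrnpu, a large nuclear scaffold protein, had -0.08, 0.07 and -0.31 in sets 1 to 3, and Hnrnpa1 had -0.20, -0.08 and 0.13, none of which passed. Hnrnpk was measured only by a pair of sets that also carry the symbol of a pseudogene and are no members. In both the persimmon peel arrays lay below the controls, with log2 fold changes of -0.31 (SE 0.10, adjusted p = 0.0943) and -0.19 (SE 0.07, adjusted p = 0.130).

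Core spliceosome genes gave 1 lower set, in Sf3b1, and 0 higher (limma), where 4.53% of all tested sets were lower. Over the 12 tested Sf3a and Sf3b sets the median log2 fold change was 0.05. Sf3b1, the large scaffold of the SF3B complex, was lower in set 3, at 145, 150, 170 and 174 on the control diet and 93.1, 80.0, 96.9 and 57.4 on the persimmon peel diet. The diets lay clearly apart, and the log2 fold change was -0.99 (SE 0.16, adjusted p = 0.00418), or 50.4% of the control level. Its sets 1 and 2 read 882, 857, 894 and 872 against 878, 867, 1180 and 712, and 897, 909, 863 and 984 against 784, 878, 817 and 900. Both overlapped between the diets, with log2 fold changes of 0.03 (SE 0.12, adjusted p = 0.924) and -0.11 (SE 0.09, adjusted p = 0.498). Sf3b5, a small SF3B subunit, had -0.06 (adjusted p = 0.817), and Sf3a2 had 0.31 (SE 0.13, adjusted p = 0.187), the highest value of the SF3 sets.

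Snrp genes, which encode Sm and other snRNP proteins, had no set past the threshold among 9 tested (limma, 0 lower and 0 higher). Their median log2 fold change was -0.05. Snrpe, an Sm protein, had -0.12 (SE 0.08, adjusted p = 0.448), Snrpd3 had -0.15 (adjusted p = 0.511), and Snrpd1 had -0.02 in set 1 and -0.50 in the dim set 2 (adjusted p = 0.163), where the diets lay apart. Snrpd2 was apart in the other direction, at 759, 767, 676 and 759 against 771, 810, 880 and 938, the log2 fold change being 0.20 (SE 0.09, adjusted p = 0.251). Single sets of Snrpa and Snrpn were too dim to be tested.

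Among the remaining regulators 0 sets passed in either direction (limma). CELF proteins, which bind GU-rich RNA, had 7 tested sets in Celf1 and Celf2, with a median of 0.08. Celf1 set 2 held the highest log2 fold change of all members, 0.54 (SE 0.17, adjusted p = 0.0763), at 492, 426, 457 and 342 against 690, 473, 853 and 526. Persimmon peel arrays 1 and 3 stood above the rest and array 2 lay within the control range. It passed as higher with the replicate number as a block, and together with Celf1 set 3 without persimmon peel array 2. Its difference to set 1 passed as higher in the upper 30%, with array weights and without persimmon peel array 2. The brightest Celf1 set had 0.07 (SE 0.09, adjusted p = 0.710), and Celf2 had 0.25 (SE 0.11, adjusted p = 0.223) in its brightest set, with the diets apart, and -0.30 in set 2 (adjusted p = 0.384). Celf3, Celf4 and Celf5, which are known from the nervous system, had 4 sets in all, none bright enough to be tested. The PTBP genes, repressors that bind pyrimidine tracts, had log2 fold changes of 0.00 (Ptbp1), 0.08 (Ptbp2) and 0.03 (Ptbp3), with adjusted p of 0.986, 0.893 and 0.899. For the LUC7-like proteins, which work with the U1 particle at the 5' splice site, the median over 6 sets was 0.07. Luc7l2 had 0.27 (SE 0.10, adjusted p = 0.133), at 535, 541, 559 and 600 against 614, 617, 779 and 704 with the diets apart, and it passed as higher only after quantile normalization (0.32, adjusted p = 0.0256). Luc7l3 had 0.03 (SE 0.10, adjusted p = 0.920) in set 1.

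Within a gene, the signal of a dimmer set can be set against the brightest set on the same array. That removes a factor common to the whole array, but not a distortion that depends on signal level. This log2 difference was lower on the persimmon peel diet in 6 of the 38 dimmer member sets and higher in 0 (limma, Benjamini-Hochberg over all 2981 dimmer sets). That is 15.8%, against 12.4% lower and 1.54% higher over the array. At an unadjusted p under 0.05, 13 member differences were lower and 3 higher. The share over all dimmer sets at that threshold was not computed, so these counts have no background beside them. The shift was negative in 25 of the 38 (65.8%, against 66.6% of all dimmer sets). The median shift was -0.14 over the members and -0.14 over all dimmer sets, so the members' shift lay at that of the array. The count of 6 was 2 without control array 3 or 4, 3 without control array 1 or persimmon peel array 1, 3 or 4, and 10 without persimmon peel array 2. Shares over all dimmer sets were not computed for these fits, so whether the counts followed the array was not tested.

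The 6 differences were those of Mbnl1 sets 2 and 3, Mbnl2 sets 2 and 3, Sf3b1 set 3 and Srsf6 set 3. For Sf3b1 set 3 the log2 difference to set 1 was -2.61, -2.52, -2.40 and -2.33 on the control arrays and -3.24, -3.44, -3.61 and -3.63 on the persimmon peel arrays. The diets lay apart by more than the range within either of them, a shift of -1.02 (SE 0.15, adjusted p = 0.0118). Mbnl2 set 3 ran from -2.20 to -2.14 on the control arrays and from -3.68 to -2.89 on the persimmon peel arrays. Its shift was -1.16 (SE 0.18, adjusted p = 0.0118), and the SD of the control arrays was 0.03. Mbnl1 set 3 shifted by -1.22 (SE 0.24, adjusted p = 0.0169), Mbnl1 set 2 by -0.68 (SE 0.19, adjusted p = 0.0382), Mbnl2 set 2 by -0.57 (SE 0.14, adjusted p = 0.0269) and Srsf6 set 3 by -0.81 (SE 0.24, adjusted p = 0.0496). In Srsf6 the diets overlapped, and in the other 5 they did not. The differences of Mbnl2 set 3 and Sf3b1 set 3 passed in all 8 fits that each left out 1 array, that of Mbnl1 set 3 in 6, and the other 3 in 1 or 2.

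Tra2b and Rsrp1, lower in every set, did not pass in this comparison. For Tra2b the shift between its sets was -0.13 (SE 0.12, adjusted p = 0.512), with the diets overlapping. For Rsrp1 it was -0.45 (SE 0.15, adjusted p = 0.0772), with the diets apart. The difference between these genes and the Mbnl genes was not tested. Of the 22 genes with several tested sets, 11 had sets of both signs. Across the 38 dimmer sets, those farther below their brightest set had more negative log2 fold changes (Spearman rho -0.43 across probe sets that share genes and arrays; -0.28 over all 2981). Over the 95 tested member sets the mean signal itself was weakly related to the log2 fold change (rho 0.13). Over all tested sets this rho had the opposite sign (-0.09).

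**Figure D4:**
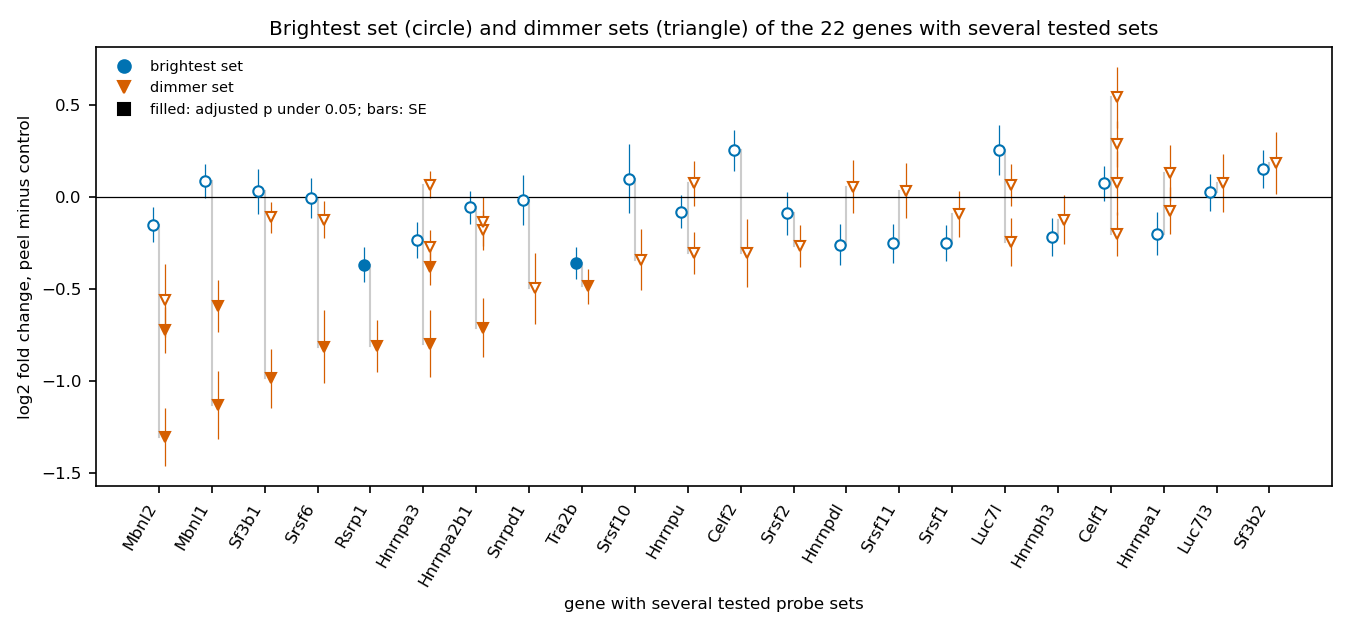
For each of the 22 genes with several tested probe sets (x axis, ordered by the lowest set), circles give the log2 fold change of the brightest set and triangles those of the dimmer sets, with SE bars; filled symbols passed the test. In Mbnl1, Mbnl2, Sf3b1 and Srsf6 the filled triangles lie below an open circle between -0.15 and 0.09, whereas in Tra2b and Rsrp1 circle and triangle are both filled.

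The beta-actin ratio lay apart between the diets. Its part in the diet differences was not tested, and its order within each diet is given here. Among the persimmon peel arrays the ratio was highest on array 2 (-0.92), and array 2 was the highest persimmon peel array in 8 of the 14 lower sets. Array 1 had the lowest ratio (-1.18) and was the lowest persimmon peel array in 5 of the 14, against 4 each for arrays 3 and 4 and 1 for array 2. The control ratios lay close together, from -0.78 to -0.75, a narrower span than on the persimmon peel diet. Control array 4 had the lowest of them and was the highest control array in 8 of the 14. Control array 3 had the highest of them and was the highest control array in 0. These positions were not counted over all tested sets, so they have no background beside them. With the ratio as a covariate, 0 of the 95 member sets and 0 of all 15521 sets passed in limma, and 5 member sets were lower at an unadjusted p under 0.05, against 2.89% of all sets. The ratio did not overlap between the diets, so ratio and diet cannot be told apart in that fit. Without persimmon peel arrays 1 and 3, 3 member sets remained lower, Mbnl2 set 3, Rsrp1 set 2 and Sf3b1 set 3, or 3 of 95 against 0.483% of all sets. At an unadjusted p under 0.05, 21 members were lower in that fit, against 11.9% of all sets.

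**Figure D5:**
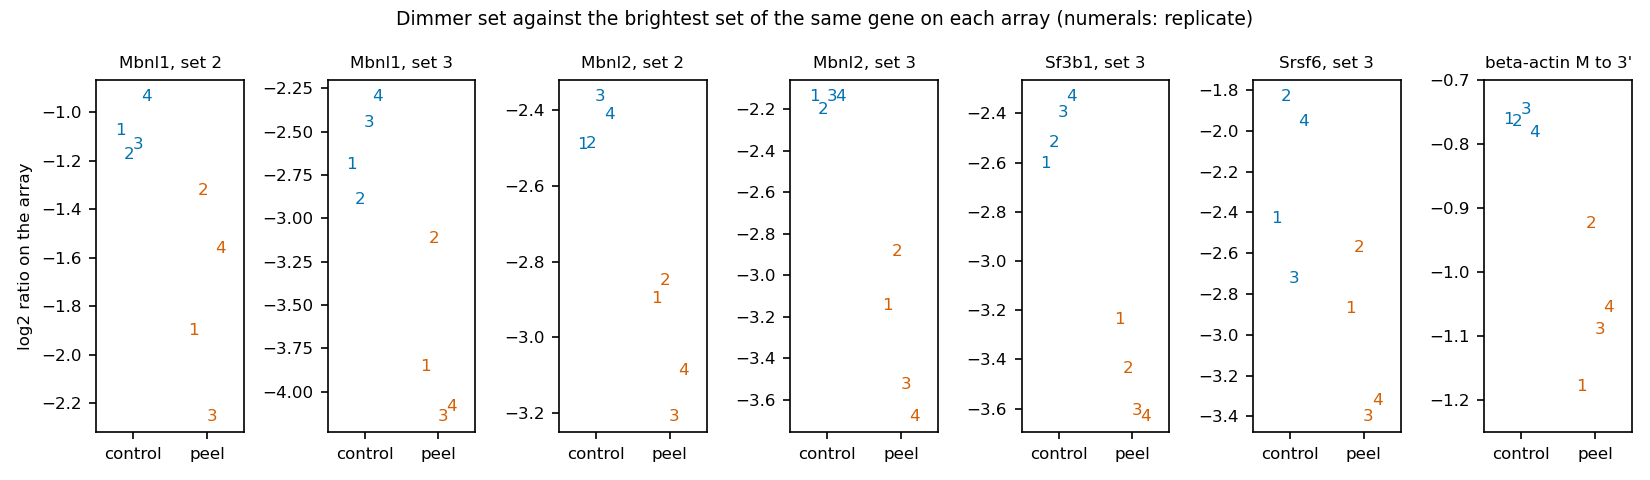
In the first 6 panels the y axis is the log2 signal of a dimmer set minus that of the brightest set of its gene on each array, and in the last panel the same for the beta-actin control sets, middle minus 3'; numerals are replicate numbers. The persimmon peel arrays lie below the control arrays in each panel except that of Srsf6, where they overlap.

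Members too dim to be tested numbered 19, with mean signals from 0.744 to 28.9 units, below the lowest tested mean of 34.4. They covered 7 genes with no tested set: Celf3, Celf4, Celf5, Snrpa, Snrpn, Srsf3 and Srsf7. In 3 of the 19 the persimmon peel arrays lay below all control arrays, and in 0 above. These were Tra2a set 2, at 34.2, 35.3, 25.0 and 23.1 against 11.2, 22.6, 17.3 and 10.8, Ptbp3 set 2, at 45.9, 39.0, 31.1 and 42.5 against 22.7, 25.9, 26.1 and 12.9, and Luc7l3 set 3, at 37.6, 28.5, 28.5 and 42.1 against 21.7, 24.2, 17.8 and 13.2. Each was the only untested set of its gene, so the filter made it the dimmest. The share apart over all untested sets was not computed, so the 3 of 19 have no background beside them. The tested members nearest above the limit were Snrpd1 set 2 at a mean of 40.5 units and Srsf7-ps4 at 41.7.

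Other splicing genes, outside the member families, were lower about as often as the array. Of 174 tested sets for 115 genes in 7 lists, 8 were lower and 2 higher, so that 4.60% were lower against 4.53% of all tested sets. Their dimmer sets were lower in 6 of 59, or 10.2% against 13.8%, and the median over their only or brightest sets was 0.00. The lists of the U4/U6.U5 and Prp19 complexes (34 sets), of U2 and branch point recognition (20 sets), and of SR protein kinases (12 sets) each had 1 lower set. SR-related and exon junction proteins (49 sets) had 3 lower and 1 higher, other splicing regulators (44 sets) 2 lower and 1 higher, and Lsm proteins (7 sets) and nonsense-mediated decay factors (8 sets) had 0 in either direction (limma).

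Dhx15, the helicase that dismantles spliceosomes, was lower in its only set, at 602, 634, 641 and 728 against 486, 469, 518 and 511 (log2 fold change -0.39, SE 0.09, adjusted p = 0.0261). Syncrip, an hnRNP-like RNA-binding protein, was lower in its brightest set (-0.51, SE 0.13, adjusted p = 0.0361). Its dimmer sets did not pass, at -0.31 (adjusted p = 0.118) and, with the opposite sign, 0.19 (adjusted p = 0.613). In dimmer sets, Tardbp (-0.92, adjusted p = 0.0171), the kinase gene Prpf4b (-0.70, adjusted p = 0.0102), Top1 (-0.84, adjusted p = 0.0297), Scaf11 (-0.74, adjusted p = 0.0174), Pnn (-0.78, adjusted p = 0.0405) and Rnps1 (-0.58, adjusted p = 0.0435) were lower. Those that were higher, Khsrp (0.45, adjusted p = 0.0446), an RNA-binding decay and splicing factor, and Scaf1 (0.49, adjusted p = 0.0472), had 1 tested set each. Clk1, a kinase that phosphorylates SR proteins, had -0.14 (adjusted p = 0.452), Prpf8, at the heart of the spliceosome, 0.19 (adjusted p = 0.323), Rbm39 0.12 (adjusted p = 0.607), Srrm2 0.09 (adjusted p = 0.797), Pcbp1 -0.11 (adjusted p = 0.445), Lsm5 0.00 (adjusted p = 0.999) and Upf3a 0.10 (adjusted p = 0.602).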

How the data were processed

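Liver RNA was extracted with ISOGEN, cleaned on RNeasy columns and labelled as biotinylated cRNA, per the labels. The deposited values are 1-colour intensity values on a linear scale, from MAS5 per the submitters' processing notes. Its scaling target and its detection calls were not analysed here. All 8 value columns were used (0 were left over), 1 array for each rat. Gene symbols came from the platform annotation. All 114 member sets were found by gene number in a RefSeq table of GRCr8, used for names, with 0 symbols changed. Probe positions along transcripts were not analysed here.

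The log2 of each value was taken, with nothing added and no further normalization, because array medians spanned 0.24 on that scale, under the limit of 0.5. Manufacturer's controls and the dimmest 50% by mean log2 were left out, leaving 15521 sets. Diets were compared with limma 3.58.1 in R 4.3.3 (lmFit, eBayes with an intensity trend, two-sided, moderated SE). A set was called where the p-value, adjusted by Benjamini-Hochberg over all tested sets, was under 0.05. Dimmer minus brightest differences were fitted alike. Both fits were tested on simulated data. The number of arrays limits the precision.

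Members, lists and alternatives were chosen with earlier results of these data known. The alternatives changed scaling (quantile, median), added 16 before the log, moved or dropped the filter (upper 30% or none), dropped the trend, used a robust fit or array weights, and blocked on replicate number. Others left out arrays, took the beta-actin ratio as a covariate, or restricted which sets enter (brightest, dimmest, within 3 log2 units, no _x_at or _s_at, current symbols). Named by rule are genes with a called set and, per family, those with the brightest set and with the most negative and most positive only or brightest set. Values of further members are given to account for them.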

Additional observations from a re-analysis of the deposited data

Results flagged for a closer look

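Of 72 groups of 4 arrays checked in 36 named probe sets, 7 held 1 array whose gap to the next, divided by the group's range on the log2 scale, passed Dixon's 95% critical value for 4 samples, which chance gives in about 1 of 20 groups. On the control diet these were array 3, low in Hnrnph1 (0.949; 1081 units) and in Snrpd2 (0.911; 676 units), array 2, low in Tra2b set 2 (0.852; 635 units), and array 4, high in Mbnl2 set 3 (0.912; 272 units) and in Mbnl2 set 1 (0.878; 1199 units). On the persimmon peel diet they were array 3, high in Celf1 set 1 (0.899; 1073 units), and array 2, low in Srsf7-ps4 (0.836; 18.5 units).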

How the results depend on the processing

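The count of 14 lower member sets stayed within a factor of 1.5 in several settings. Brackets give the share of all tested sets that were lower there, which was 4.53% in the main fit. The count was 10 with quantile normalization (3.85%), 14 with median centring (5.46%), 14 with a pseudocount of 16 (4.59%) and 11 of 81 in the upper 30% (5.29%). It was 14 with a robust fit (4.55%), with array weights (5.64%), with current symbols and without _x_at or _s_at sets. With median centring 13 of the 14 were those of the main fit, and Rsrp1 set 1 lost its call. The count was 7 of 95 without the intensity trend, where 3.13% of all tested sets were lower, against 4.53% in the main fit. It was 6 of 114 with no filter on dim sets, against 1.42% of all sets. Without persimmon peel arrays 1 and 3 it was 3 of 95, against 0.483%. It was 0 of 95 with the beta-actin covariate, where 0 of all sets passed, and 0 of 57 with only brightest sets, against 0.85%. Higher member sets numbered 1 after quantile normalization. With each array left out, lower sets ranged from 6 to 13 and higher sets from 0 to 2. In these fits 1.90% to 6.07% of all tested sets were lower. Among the 38 dimmer minus brightest differences, in place of 6, 11 were lower with array weights. The count was 0 without persimmon peel arrays 1 and 3 or with the covariate. Leaving out each array gave 2 to 10 lower and 0 to 1 higher. Other settings changed which differences were tested. With the dimmest set only, 1 for each of 22 genes, 2 were lower, and with no filter 0 of 50 were. Shares over the array were not computed for the differences in these settings. Higher differences numbered 1 of 29 in the upper 30% and 1 of 38 with array weights. With the replicate block, 11 member sets were lower and 1 (Celf1 set 2) higher, and 3 differences were lower; same-numbered arrays deviated together with correlations of 0.02, -0.08, 0.05 and 0.04, and 1 of 4 numbers correlated best with itself. The cause of these changes was not tested.

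Some log2 fold changes turned sign. With the covariate, they were 0.15 for Hnrnpa3 set 5, 0.21 for Hnrnpa3 set 1, -0.0103 for Celf1 set 1, -0.13 for Hnrnpul1, -0.27 for Luc7l3 set 1, -0.16 for Mbnl1 set 1, -0.23 for Ptbp3 set 1, -0.20 for Ptbp1, -0.11 for Sf3b1 set 1 and -0.17 for Srsf9, and 0.0901 for the difference of Mbnl1 set 2. Without persimmon peel arrays 1 and 3, they were -0.0152 for Celf1 set 1, -0.0615 for Luc7l3 set 1, -0.0767 for Ptbp3 set 1, -0.10 for Ptbp1 and -0.16 for Sf3b1 set 1. Ptbp1 had -0.0162 after median centring and -0.0443 with array weights, where Sf3b1 set 1 had -0.0482. With each array left out, ranges were -0.0062 to 0.11 for Celf1 set 1, -0.0437 to 0.10 for Luc7l3 set 1, -0.0606 to 0.10 for Ptbp3 set 1, -0.0884 to 0.061 for Ptbp1, -0.15 to 0.25 for Ptbp2, -0.10 to 0.14 for Sf3b1 set 1 and -0.11 to 0.019 for Sf3b5. All of these except Hnrnpa3 set 5 and the Mbnl1 difference had missed the threshold. Signals close to background limit the dim sets most.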

Other observations

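Other probe sets that carry a member symbol together with another were too few to group. Sets shared by Snurf and Snrpn had log2 fold changes of 0.39 (adjusted p = 0.343) and -0.33 (adjusted p = 0.413), in opposite directions. The set shared by Snrpc and a pseudogene had 0.12 (adjusted p = 0.517), and that shared by Snrpg and its look-alikes had -0.05 (adjusted p = 0.864).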
